A study of Caenorhabditis elegans with 12 samples.

Results

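Broad domains of H3K9me2 are stretches of 5 kb or more in which peaks of the mark follow one another closely. They were found by pooling the H3K9me2 peaks of both transgenerational ChIP-seq experiments, joining peaks on the same chromosome that lay at most 1000 bp apart, and keeping joined stretches of 5000 bp or more. This gave 606 broad domains among 7509 merged domains, and the other 6903 merged domains were under 5 kb. The broad domains were therefore chosen by their length from the pooled peak calls themselves. Their length, the closeness of their peaks and the part of each list in them are described here and not tested. In the *wdr-5* experiment, H3K9me2 was profiled in early-, mid- and late-gen *wdr-5 (ok1417)* mutants and in wild type (N2) of the same generations. In the *jhdm-1* experiment it was profiled in early- and mid-gen *jhdm-1 (ok2364)* mutants and in wild type (N2) of both generations. Each mutant strain carries 1 deletion allele. All were unsorted whole animals of mixed stage, so germline and soma were sampled together, and fewer cells carrying the mark cannot be told apart from less of the mark per cell. The peak list of each experiment is the union over all of its groups, wild type included. A peak of the *wdr-5* list or of the *jhdm-1* list was thus called in at least 1 group of that experiment, and no group, generation or replicate can be set against another. The labels give 2 wild-type libraries, early- and mid-gen, as used in both experiments, so the lists share some of their data. The lists hold positions only, so the depth of the libraries and the height of the peaks are unknown.

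H3K9me2, the dimethyl mark on a lysine in the tail of histone H3, is a mark of repressed chromatin. In *C. elegans* much of it is laid down by the methyltransferase MET-2, and it lies mainly over repeat-rich chromatin on the arms of the chromosomes, which is held near the nuclear envelope. WDR-5 is a subunit of COMPASS, the complex that methylates H3K4 in active chromatin, and JHDM-1 is a putative H3K9 demethylase.

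The broad domains were few but held a large part of the marked sequence. They spanned 5.47 Mb, which was 5.46% of the summed chromosome length, taking each chromosome to end at its last peak. Peaks covered 4.63 Mb of this, or 37.5% of all base pairs under a peak of either list. Broad domains took in 3157 of 10457 *wdr-5* peaks (30.2%) and 1328 of 5883 *jhdm-1* peaks (22.6%). By base pairs the difference was greater, with 45.3% of the *wdr-5* list and 32.0% of the *jhdm-1* list inside them. Larger shares of the *wdr-5* list than of the *jhdm-1* list thus lay in broad domains, by number and by length. For their position, each chromosome was cut into 3 equal parts, of which the outer parts are called its left and right arm and the other its centre.

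Most broad domains were only moderately longer than the limit. Their median length was 7398 bp, with quartiles of 5931 and 10097.5 bp, and 449 of them (74.1%) were under 10 kb. Only 22 domains (3.63%) reached 20 kb, and the longest, on Chromosome III, spanned 95597 bp. A median broad domain was put together from 7 peaks, with quartiles of 5 and 9, of which 5 came from the *wdr-5* list and 2 from the *jhdm-1* list. The rule that joins peaks over short gaps left little bare sequence inside. Peaks covered 84.7% of a broad domain at the median, from 47.4% in the emptiest to 100% in 54 domains whose peaks formed 1 unbroken block. At least 1 peak of 5 kb or more lay in 145 domains (23.9%), a *wdr-5* peak in 83 and a *jhdm-1* peak in 67, with some domains holding both. The other 461 were broad only as chains of shorter peaks.

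The limit of 5000 bp fell within a continuous range of lengths. Just inside it were domains on Chromosome V of 5000 bp (chrV:17407943-17412942) and 5012 bp (chrV:18092846-18097857) and one of 5013 bp on Chromosome III (chrIII:12283319-12288331). Just outside were a lone *jhdm-1* peak of 4998 bp on Chromosome X (chrX:3567463-3572460), a domain of 4996 bp on Chromosome II (chrII:14063234-14068229) and one of 4993 bp on Chromosome III (chrIII:1228662-1233654). All coordinates are on WS220/ce10 and counted from 1. The domains inside the limit had 4 to 8 peaks and those outside it, apart from the lone peak, 4 or 5.

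Nearly all broad domains were marked in both experiments. Peaks of both lists were present in 565 of the 606 broad domains (93.2%, 95% Wilson interval from 91.0% to 94.97%, which covers counting error only) and in 2307 of the 6903 domains under 5 kb (33.4%, from 32.3% to 34.5%). Over all merged domains the share was 38.2%. Domains were built from the pooled peaks and longer ones hold more of them, so the rule itself favours broad domains with both lists. The 120 broad domains that reached 5 kb only by joining both lists hold both by construction. The share with both lists climbed with length on both sides of the limit. It was 13.0% among merged domains under 1 kb, 47.9% from 1 to 2 kb, 65.4% from 2 to 3 kb, 76.7% from 3 to 4 kb and 79.5% from 4 to 5 kb. Above the limit it was 88.7% from 5 to 7.5 kb, 96.4% from 7.5 to 10 kb and 99.3% from 10 to 20 kb, and all 22 domains of 20 kb or more held peaks of both lists. Between the classes on either side of 5 kb it was 88.7% (from 84.7% to 91.8%) above the limit and 79.5% (from 74.1% to 84.0%) below it.

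**Figure D1:**
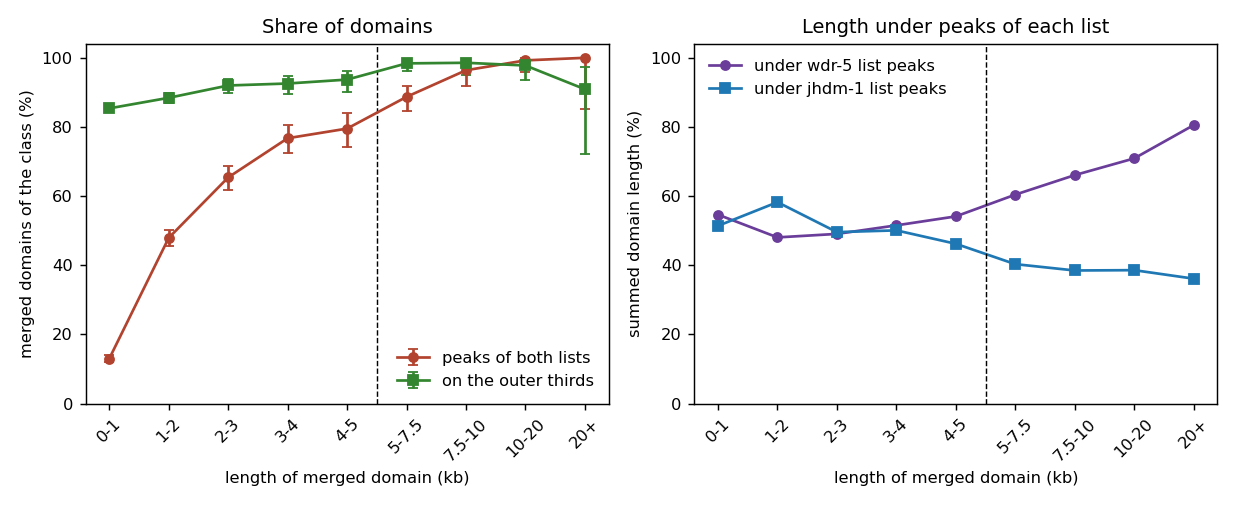
Merged H3K9me2 domains by length class (kb, horizontal axes; the dashed line marks the 5 kb limit). Left, percent of the domains of each class that hold peaks of both lists (circles) or lie on the chromosome arms, the outer parts of 3 equal parts (squares), with 95% Wilson intervals; the share with both lists climbs from 13.0% to 100%. Right, percent of the summed domain length of each class under peaks of the *wdr-5* list (circles) and of the *jhdm-1* list (squares). The lists cover 48.1% and 58.2% from 1 to 2 kb, 54.1% and 46.2% from 4 to 5 kb, and 80.5% and 36.1% in domains of 20 kb or more.

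Holding peaks of both lists did not mean that the lists marked the same bases. In the broad domains, 1.18 Mb lay under peaks of both lists, 25.5% of the sequence under any peak. In the domains under 5 kb it was 16.0%. Of the *jhdm-1* base pairs, 55.6% lay under a *wdr-5* peak in broad domains and 27.4% in domains under 5 kb. Of the *wdr-5* base pairs, 32.1% lay under a *jhdm-1* peak in broad domains and 27.9% in domains under 5 kb. The share of the *jhdm-1* list that was covered by the other list was thus higher in broad domains, where *wdr-5* peaks also filled more of the sequence, and that of the *wdr-5* list was nearly the same in both. In 25 of the 565 domains with both lists (4.42%) their peaks did not share a single base and were joined only across a gap.

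The broad domains were filled mainly by the *wdr-5* list. In sum, *wdr-5* peaks covered 67.4% of their length and *jhdm-1* peaks 38.9%, a ratio of 1.73, whereas in domains under 5 kb the lists covered 51.1% and 52.0%, a ratio of 0.982. *wdr-5* peaks covered more of the domain than *jhdm-1* peaks in 443 broad domains (73.1%, from 69.4% to 76.5%) and less in the other 163. Over all merged domains it was more in 54.7%, and the *wdr-5* list was the larger one as a whole, with 1.22 times the base pairs of the *jhdm-1* list. In the classes under 5 kb the ratio was between 0.825, from 1 to 2 kb, and 1.17, from 4 to 5 kb. Above the limit the balance moved steadily with length. The ratio of *wdr-5* to *jhdm-1* base pairs was 1.499 from 5 to 7.5 kb, 1.72 from 7.5 to 10 kb, 1.84 from 10 to 20 kb and 2.23 at 20 kb or more. The part of the length under *wdr-5* peaks was 60.4% in the shortest of these classes and 80.5% in the longest, and that under *jhdm-1* peaks was 40.3% and 36.1%. The *wdr-5* list joined more ChIP groups than the *jhdm-1* list, 6 and 4. The paper's methods also name more replicates for the *wdr-5* than for the *jhdm-1* experiment, while a peak of either had to be found in at least 2. The requirement was thus not equally strict for the lists. A difference between the experiments in libraries or peak calling cannot be told apart from one between the strains.

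Each list was also merged on its own, which describes the same peaks again and is not separate support for the imbalance. The *wdr-5* list alone formed 413 broad domains over 3.73 Mb, and the *jhdm-1* list alone formed 117 over 0.887 Mb. Of the 606 broad domains of the pooled lists, 372 (61.4%) were also broad in the *wdr-5* list alone but not in the *jhdm-1* list, 82 (13.5%) in the *jhdm-1* list alone but not in the *wdr-5* list, and 32 (5.28%) in each list. The remaining 120 (19.8%) reached 5 kb only when the peaks of both experiments were joined. A domain that passed the limit through 1 list tends to hold more of that list. The ratio of the lists in broad domains thus depends in part on the rule that chose them. The outer ends of the broad domains were likewise set by a *wdr-5* peak at 850 of 1212 ends (70.1%) and by a *jhdm-1* peak at 360 (29.7%), with both lists ending at the same base at 2.

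Broad domains with much of one list tended to have little of the other. Across the 606 domains, the share of the length under *wdr-5* peaks and that under *jhdm-1* peaks went in opposite directions (Pearson's r = -0.63, Spearman's rho = -0.54). Domains are not independent replicates, and since only stretches with short gaps were joined, a domain with little of one list had to hold more of the other. In the plot of composition, domains with more *wdr-5* coverage outnumbered those with more *jhdm-1* coverage, and whether they form separate groups was not tested. The quartiles were 48.8% and 84.0% of the length under *wdr-5* peaks and 16.8% and 58.3% under *jhdm-1* peaks. More than 90% of the length lay under *wdr-5* peaks in 84 domains and under *jhdm-1* peaks in 44. Along the domains with both lists, cut into 20 equal parts, *wdr-5* peaks covered between 57.8% and 70.7% of each part and *jhdm-1* peaks between 37.7% and 44.4%. The first and the last part had the most *wdr-5* coverage, 70.7% and 69.8%, and little sequence under both lists, 13.0% and 12.3%, against 20.6% to 26.6% in the parts between. A peak of at least 1 list has to lie at each end of a domain by the way domains are built.

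**Figure D2:**
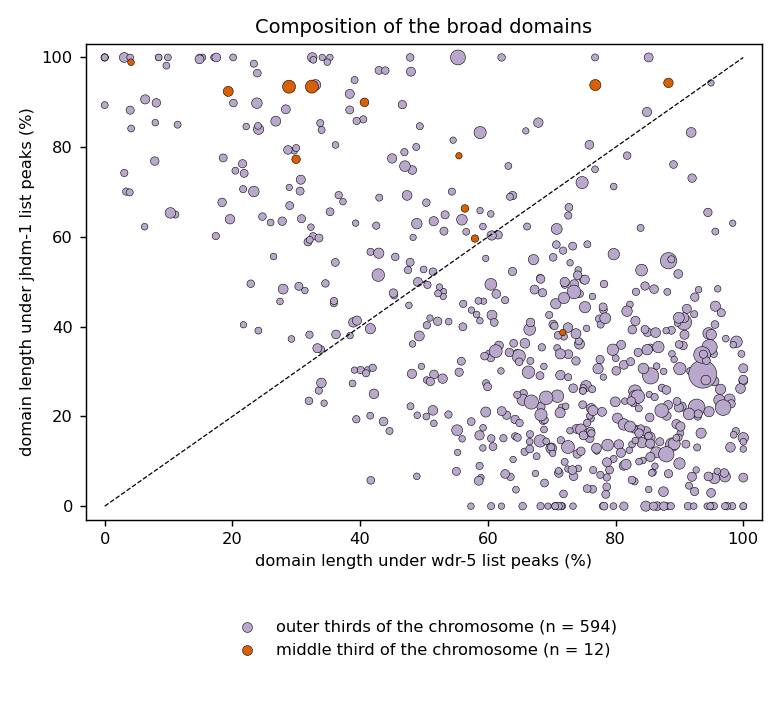
Each point is 1 of the 606 broad domains, placed by the percent of its length under *wdr-5* list peaks (horizontal) and under *jhdm-1* list peaks (vertical), with the area of the point in proportion to its length. Domains on the chromosome arms (n = 594) lie mostly below the dashed line of equal shares, and 11 of the 12 in the centre (orange) lie above it.

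The longest broad domain was a run of H3K9me2 on the left arm of Chromosome III, chrIII:1485397-1580993. Its 95597 bp were 2.76 times the length of the next longest domain. It held 50 peaks, the most of any broad domain. The 27 *wdr-5* peaks covered 93.6% of it, and the 23 *jhdm-1* peaks covered 29.4%. Of the *wdr-5* peaks 8 were 5 kb or longer, up to 13582 bp, while the longest *jhdm-1* peak was 4362 bp. The *wdr-5* peaks were nearly continuous. Of the 26 gaps between them 17 were under 200 bp, and the widest was 829 bp. The *jhdm-1* peaks were islands with a median gap of 2235.5 bp and a widest gap of 12650 bp, and 95.9% of their base pairs lay under a *wdr-5* peak.

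Of the other 11 among the 12 longest domains outside Chromosome I, 6 also lay on the left arm of Chromosome III. The domain chrIII:1819637-1854285 (34649 bp) had 92.7% of its length under 8 *wdr-5* peaks and 22.0% under 6 *jhdm-1* peaks. In chrIII:2183132-2217067 (33936 bp) it was 93.5% under 6 *wdr-5* peaks and 33.7% under 7 *jhdm-1* peaks. In chrIII:1861165-1889974 (28810 bp) it was 87.9% and 11.6%, the lowest *jhdm-1* share among the 12 longest domains outside Chromosome I. *wdr-5* peaks thus covered most of each of these domains, with scattered *jhdm-1* peaks. In chrIII:1923551-1952286 (28736 bp) *wdr-5* peaks covered 90.7% and *jhdm-1* peaks 41.0%. In chrIII:1162820-1191434 (28615 bp) *wdr-5* peaks covered 94.7%, with a single peak of 18987 bp, and 13 short *jhdm-1* peaks of at most 1966 bp covered 35.4%. The domain chrIII:1027204-1049917 (22714 bp) was less full, with 69.1% under *wdr-5* and 24.1% under *jhdm-1* peaks, and its left end was formed by a *jhdm-1* peak of 2566 bp that met no *wdr-5* peak.

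The other long domains outside Chromosome I were on Chromosomes II, IV and V. The longest on Chromosome V, chrV:19007602-19037595 (29994 bp), was the fullest of the 12 in *wdr-5* peaks, with 96.8% of its length under 8 of them and 22.0% under 8 *jhdm-1* peaks. The longest on Chromosome II, chrII:2451897-2483866 (31970 bp), had 85.5% under 10 *wdr-5* peaks and 29.0% under 7 *jhdm-1* peaks. A pair of domains were chains of short peaks. The longest on Chromosome IV, chrIV:2209957-2234562 (24606 bp), had 66.8% of its length under 18 *wdr-5* peaks of at most 4456 bp and 23.2% under 5 *jhdm-1* peaks, and chrV:18435848-18458789 (22942 bp) had 73.5% under 25 *wdr-5* peaks of at most 2772 bp and 47.7% under 7 *jhdm-1* peaks. Outside Chromosome I they had the most peaks after the longest domain, 32 on Chromosome V and 23 on Chromosome IV.

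One of the longest domains was built the other way round. The domain chrII:1959415-1986552 was a single *jhdm-1* peak of 27138 bp from end to end. In the *wdr-5* experiment the same stretch was broken into 21 peaks of at most 3101 bp that covered 55.3% of it. It was the only one of these 12 domains with more *jhdm-1* than *wdr-5* base pairs, and the only one with a *jhdm-1* peak of 5 kb or more, while 9 of the 12 held such a *wdr-5* peak.

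**Figure D3:**
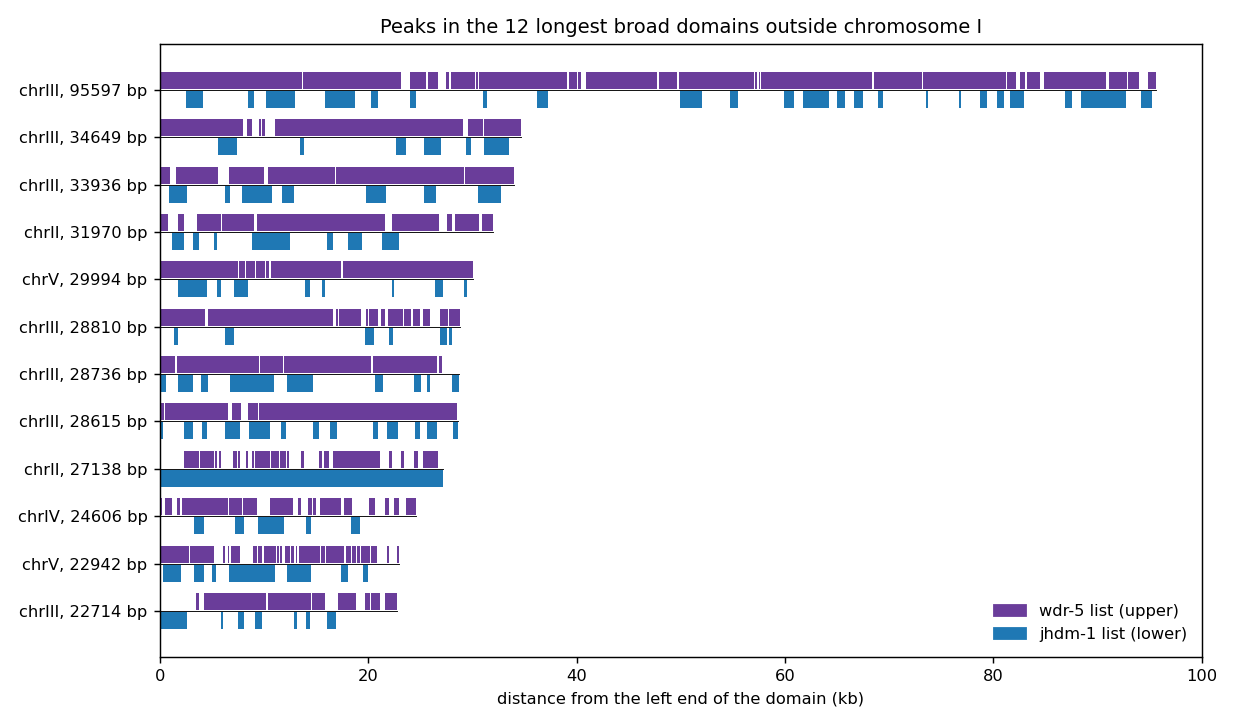
Peaks of the *wdr-5* list (upper bars) and of the *jhdm-1* list (lower bars) in the 12 longest broad domains outside Chromosome I, drawn to scale by distance from the left end of the domain (kb). *wdr-5* peaks fill most domains, including 93.6% of the longest, and *jhdm-1* peaks are scattered islands, except in the domain of 27138 bp on Chromosome II, which is 1 *jhdm-1* peak.

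Few broad domains were confined to 1 experiment. Peaks of the *wdr-5* list only made up 35 broad domains (5.78%) and 2693 domains under 5 kb (39.0%), against 36.3% over all merged domains. Peaks of the *jhdm-1* list only made up 6 broad domains (0.990%) and 1903 domains under 5 kb (27.6%), against 25.4% over all merged domains. All 41 lay on the chromosome arms, as did 98.0% of all broad domains. The kinds differed in their number of peaks. The 35 *wdr-5* domains had a median of 4 peaks and 2 of them were a single peak, whereas 5 of the 6 *jhdm-1* domains were a single unbroken peak. This was not particular to them, since *wdr-5* peaks were shorter at the median in both kinds of merged domain. The median *wdr-5* and *jhdm-1* peaks were 665 and 995 bp long in broad domains, and 447 and 800 bp in domains under 5 kb. Of the *wdr-5* domains 11 lay on the left arm of Chromosome III, which held 91 of all 606 broad domains.

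The longest domains of 1 list only illustrate this. The longest *wdr-5* one, chrII:1342990-1355541, was 12552 bp long and had 84.7% of its length under 6 peaks of at most 3254 bp. It was followed by chrIII:312818-322040 (9223 bp) and chrIII:2005742-2014735 (8994 bp), each of 3 peaks, the longest of which were 7603 and 6055 bp. The longest *jhdm-1* one was a single peak of 6673 bp at the left end of Chromosome IV, chrIV:3268-9940, which began 3.27 kb from the first base. The next were single peaks of 5991 bp on Chromosome X (chrX:16381294-16387284) and 5719 bp on Chromosome V (chrV:6392732-6398450).

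Among the domains with both lists, some were nearly as one-sided. The highest ratio of *wdr-5* to *jhdm-1* base pairs outside Chromosome I, 29.9, was in chrIV:875676-883411 (7736 bp), where 6 *wdr-5* peaks covered 78.5% and the only *jhdm-1* peak was 203 bp long. It was 28.3 in chrIII:11608658-11617141 (8484 bp) and 27.1 in chrII:2502926-2514621 (11696 bp), each with 1 *jhdm-1* peak, of 277 and 377 bp. These domains would have been counted as *wdr-5* domains but for a short peak. The lowest ratio, 0.0307, was in chrII:13817727-13829515, a *jhdm-1* peak of 11789 bp that contained 3 *wdr-5* peaks of 57 to 170 bp. It was 0.0399 in chrX:1535521-1541102 (5582 bp) and 0.0452 in chrII:14708512-14716606 (8095 bp), each with 1 *wdr-5* peak, of 223 and 323 bp. When at least 10% of the length had to lie under each list, 82.0% of broad domains counted as marked in both.

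Broad domains lay almost wholly on the chromosome arms. The midpoints of 594 of 606 broad domains (98.0%, from 96.6% to 98.9%) lay on the arms, as did those of 6045 of 6903 domains under 5 kb (87.6%, from 86.8% to 88.3%) and 88.4% of all merged domains. The position was not used to choose the domains. Shorter domains were also denser on the arms, however, and how far the joining of close peaks favours broad domains there was not tested. Domains lie in clusters and are not independent, so these intervals are too narrow as a measure of biological spread. The share grew with length below the limit, from 85.4% under 1 kb to 93.7% from 4 to 5 kb, and was 98.4% from 5 to 7.5 kb, but 20 of the 22 domains of 20 kb or more lay on the arms (90.9%). With each chromosome cut into 10 equal parts, broad domains were densest in part 2, with 15.0 per Mb, and in parts 1 and 10, with 13.7 and 13.6 per Mb. They were at most 0.898 per Mb in parts 4 to 7. Domains under 5 kb dropped less steeply, to between 23.4 and 30.4 per Mb in parts 4 to 7, against 101 to 113 per Mb in parts 1, 2, 9 and 10.

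**Figure D4:**
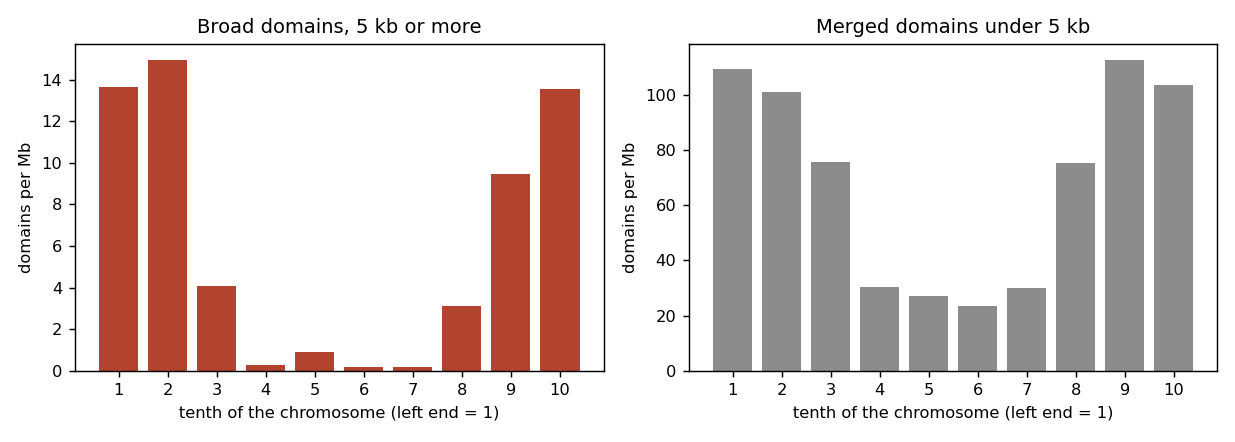
Number of merged domains per Mb in each of 10 equal parts of the chromosomes (horizontal axes, left end to right end), summed over 6 chromosomes, for broad domains (left) and for domains under 5 kb (right); the vertical scales differ and both start at 0. Broad domains reach 15.0 per Mb in part 2 and at most 0.898 per Mb in parts 4 to 7, and domains under 5 kb thin out less in the middle.

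The arms were not alike. Broad domains made up 16.0% of all merged domains on the left arm of Chromosome III (91 of 569, from 13.2% to 19.2%), 13.3% on the right arm of Chromosome V (106 of 798) and 12.8% on the left arm of Chromosome I (90 of 701). On the opposite arms the share was 7.64% on Chromosome III, 3.70% on Chromosome V and 9.38% on Chromosome I. Chromosome IV had 72 broad domains on its left arm and 14 on its right arm, and Chromosome V had 19 on its left arm and 106 on its right, so the side rich in broad domains differed between chromosomes. Domains under 5 kb were more evenly split, with 645 on the left arm and 408 on the right arm of Chromosome IV and 494 on the left and 692 on the right arm of Chromosome V. Chromosome II had 45 on the left arm and 27 on the right. The left arm of Chromosome III was the most heavily covered, with 21.9% of its length in broad domains, against 1.76% of the left arm of Chromosome V.

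Chromosome X had few broad domains. It held 19 of 606 (3.14%, from 2.02% to 4.84%) and 493 of the 6903 domains under 5 kb (7.14%, from 6.56% to 7.77%), against 6.82% of all merged domains and 17.7% of the chromosome length. This was 1.07 broad domains per Mb, against 4.71 on Chromosome II and 10.5 on Chromosome I, the autosomes with the fewest and the most per Mb. Those on X were not short, with a median of 9492 bp, and 13 of the 19 lay on the left arm. This depended on how domains were built. When only touching peaks were joined, X held nearly the same share of both, 5.15% of broad and 5.30% of shorter domains. In the *jhdm-1* list alone the direction was reversed, with 6.84% of broad and 6.29% of shorter domains on X.

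The balance between the experiments also differed by chromosome. The ratio of *wdr-5* to *jhdm-1* base pairs in broad domains was 2.41 on Chromosome III, 1.73 on IV, 1.69 on I, 1.65 on V, 1.24 on II and 0.968 on X. Without the longest domain the ratio on Chromosome III was 2.35. In domains under 5 kb Chromosomes II and X were again lowest, with 1.18 on V, 1.17 on III, 0.973 on I, 0.970 on IV, 0.835 on II and 0.573 on X. On every chromosome as a whole the ratio was thus higher in broad domains than in shorter ones, but not in every part. Among the arms, the ratio in broad domains was highest, at 2.86, on the left arm of Chromosome III and lowest, at 0.237, on the right arm of X, where it rests on 5 domains. The shorter domains of that arm had 0.678, and it was the only arm where broad domains had the lower ratio. In the centres, broad domains had the lower ratio on Chromosomes I, IV and V and the higher on III and X. Each of these centres held between 1 and 6 broad domains.

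Broad domains lay near one another. The median gap between neighbouring broad domains on a chromosome was 21450 bp, with quartiles of 6755.5 and 70840 bp, and 208 of them (34.3%) had another within 5 kb. Only 60 (9.90%) had none within 100 kb. Of the windows of 1 Mb into which the chromosomes were cut, 12 held 20 or more broad domains and together held 328 of the 606 (54.1%). The 39 windows without a broad domain all had shorter ones. The window from 1 to 2 Mb on Chromosome III held 34 broad domains, which spanned 48.9% of it, and that from 19 to 20 Mb on Chromosome V held 37, which spanned 36.0%. Shorter domains stood close by, with a median of 3 domains under 5 kb (quartiles of 2 and 4) within 10 kb of a broad domain. Around a domain under 5 kb the median was 2 (quartiles of 1 and 3). The nearest merged domain of any length was 1584.5 bp away from a broad domain at the median, and 2449 bp away from a domain under 5 kb.

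The 12 broad domains of the chromosome centres differed in make-up from those of the arms. *wdr-5* peaks covered 45.1% and *jhdm-1* peaks 86.2% of their summed length, a ratio of 0.523, whereas on the arms they covered 67.9% and 37.7%, a ratio of 1.80. *jhdm-1* peaks covered the larger part in 11 of the 12 (91.7%, from 64.6% to 98.5%) and in 152 of the 594 on the arms (25.6%, from 22.2% to 29.2%). The exception in the centres was chrIII:7707324-7712345 (5022 bp), with 71.7% of its length under a *wdr-5* peak and 38.7% under a *jhdm-1* peak, named after its values were seen. The domains under 5 kb showed the same direction, with a ratio of 0.568 in the centres and 1.05 on the arms. In the centres the *jhdm-1* list thus outweighed the *wdr-5* list at both lengths.

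The most isolated broad domain outside Chromosome I was the longest on Chromosome X, chrX:7350603-7365755 (15153 bp), which lay 4712798 bp from the next. It was marked almost alike in both experiments. A *wdr-5* peak of 10164 bp lay wholly within a *jhdm-1* peak of 12816 bp, and a second pair of peaks, 1478 and 1405 bp long, lay beside it. The lists shared 11487 bp there. A domain on Chromosome III, chrIII:6565907-6576869 (10963 bp), was similar, with a *wdr-5* peak of 9142 bp and a *jhdm-1* peak of 10342 bp, and this domain was singled out after its values were seen. The other isolated domains were on Chromosome IV. In chrIV:8398883-8403933 (5051 bp) *wdr-5* peaks covered 55.5% and *jhdm-1* peaks 78.1%, and in chrIV:6343673-6352607 (8935 bp) they covered 29.97% and 77.3%.

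The longest broad domains of the centres were neighbours on Chromosome V and had almost the same internal layout. In chrV:8866838-8887471 (20634 bp) 16 *wdr-5* peaks covered 32.4% and 3 *jhdm-1* peaks 93.5%. In chrV:8824800-8845372 (20573 bp) 10 *wdr-5* peaks covered 28.9% and 3 *jhdm-1* peaks 93.5%. Each of them was followed at a short distance, 1987 and 1991 bp, by another broad domain, chrV:8889459-8898639 (9181 bp) and chrV:8847364-8859616 (12253 bp), with 2 *jhdm-1* peaks each. These 4 domains stood within 73.84 kb, and the layout was examined after their values were seen. From left to right, the *jhdm-1* peaks were 3469, 3368, 12395, 3518 and 7808 bp long in the left pair of domains and 3483, 3410, 12400, 3535 and 4728 bp long in the right pair. Their starts lay 42038, 42063, 42094, 42095 and 42103 bp apart. The first 4 *jhdm-1* peaks were thus repeated in length and spacing, and the last differed in length. When the left pair was moved by 42094 bp onto the right pair, 84.3% of its *wdr-5* base pairs and 89.8% of its *jhdm-1* base pairs fell under a peak of the same list, which made up 67.2% and 99.6% of those lists on the right. Whether the underlying sequence is repeated was not tested, since no genome of this build was used. Without these 4 domains, *jhdm-1* peaks still covered the larger part in 7 of the other 8 broad domains of the centres, with a ratio of 0.750.

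**Figure D5:**
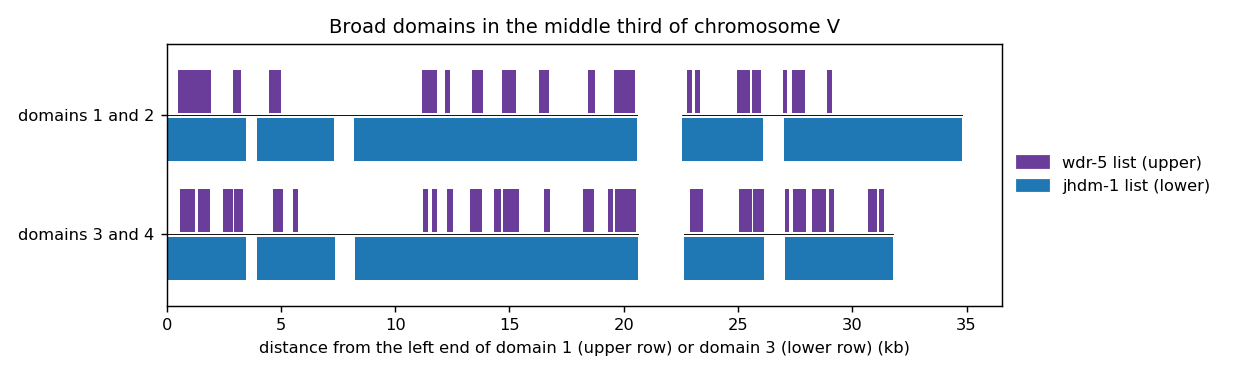
Peaks of the *wdr-5* list (upper bars) and of the *jhdm-1* list (lower bars) in 4 neighbouring broad domains of the centre of Chromosome V. The horizontal axis is the distance (kb) from the left end of domain 1, chrV:8824800-8845372, in the upper row, and of domain 3, chrV:8866838-8887471, in the lower row; the *jhdm-1* peaks of 12395 and 12400 bp and their neighbours line up.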

How the data were processed

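H3K9me2 ChIP-seq was carried out by the authors on mixed-stage whole animals. Per the paper's methods and the labels, reads were aligned to WS220/ce10 (Bowtie2) and broad peaks were called by MACS2 2.1.1 at a q-value of 0.01. The deposited list of each experiment is a union of the peaks found in 2 or more replicates of any of its groups, and gives positions without a score, count or coverage, so depth and replicate error are unknown.

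Peaks were merged with Python 3.11.15. bedtools 2.31.1 gave the same 7509 domains, and the merging was tested on simulated lists. A list counted as present in a domain from 1 bp. Intervals are 95% Wilson intervals (scipy 1.17.1). Domains are not replicates, so no test was run. The alternatives were other gaps, lengths, minimum peak lengths, single lists, autosomes only and 4 parts per chromosome.

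The domains and comparisons were chosen with earlier results of these data known. Outside Chromosome I, which is given by counts, the domains named are the 12 longest, the longest of each chromosome, the 3 with the most peaks, the 3 longest of each list alone, the 3 with the highest and the 3 with the lowest ratio of the lists, the 3 longest in the centres, the 3 most isolated, and the 3 on either side of 5000 bp. No gene was assigned and no sequence is shown, because the annotation at hand was for another build, WBcel235.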

Additional observations from a re-analysis of the deposited data

How the results depend on the processing

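Over 9 results, 79 alternatives gave a value, 2 of them chosen after seeing the data. In 46 the result stayed within its interval or, for counts, lengths, ratios and shares of base pairs, within 1.5 times, and in 33 it moved further. A wider or narrower rule moves the count, the length and the fill of broad domains by construction. With gaps of 0, 500 and 2000 bp there were 194, 361 and 931 broad domains over 1.49, 3.09 and 10.5 Mb, with 12.04%, 23.6% and 58.4% of peak base pairs and a median of 100%, 95.6% and 67.2% under a peak. At 10000 bp or more there were 157 over 2.40 Mb, with 16.9% of peak base pairs, 87.5% under a peak, 99.4% with both lists and 5.10% on Chromosome X. At 4000 bp or more 89.2% held both lists. With peaks of 500 bp or more 84.8% held both lists and 89.2% lay under a peak, and with 10% of the length required under each list 82.0% held both. The *wdr-5* list alone gave 82.3% under a peak and 99.0% on the arms. The *jhdm-1* list alone gave 117 domains over 0.887 Mb, with 12.2% of peak base pairs, 93.5% under a peak, 93.2% on the arms and 6.84% on X. With a gap of 0 bp, 95.9% lay on the arms and 5.15% on X, and in 4 parts the outermost held 94.4%. The ratio of *wdr-5* to *jhdm-1* base pairs stayed between 1.33 and 1.94. The shorter domains of the same merging were set beside them after seeing the data. Broad domains kept the higher share with both lists in 9 of 9 alternatives, the higher ratio in 8 of 8 and the higher share on the arms in 11 of 11. The difference in ratio was small with a gap of 0 bp, 1.33 in broad and 1.21 in shorter domains, against 1.73 and 0.982 under the main rule. For the share with both lists and the ratio, every alternative still pooled both lists and chose by length. The direction of these measures is therefore favoured by the rule, and the counts add no support. For the arms the difference shrank in some alternatives. With a gap of 0 bp 95.9% of broad and 91.6% of shorter domains lay there, and in the *jhdm-1* list alone 93.2% and 89.4%. Shorter domains were also denser on the arms, where close peaks are more readily joined, so that count is not separate support either. The lower share on X was kept in 8 of 9 and reversed in the *jhdm-1* list alone, with 6.84% of broad and 6.29% of shorter domains. No paired analysis was possible because each list joins all replicates, and no replicate could be left out. A peak missing from a list may lie below detection, since the depth is unknown.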
